A study of Mus musculus with 9 samples.

Results

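The 7 genes described here encode the signalling chains of the T cell receptor complex (Cd3e, Cd3d, Cd3g and Cd247) and its coreceptors (Cd4, Cd8a and Cd8b1). Members were all probe sets whose single gene symbol was one of these 7, of 18193 genes named in this way, which gave 15 of 45037 probe sets on the array. Cd8a had 5 probe sets, Cd247 had 4, Cd4 had 2, and Cd8b1, Cd3e, Cd3d and Cd3g had 1 each. All 15 passed the filter on dim signals.

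RNA came from 9 C57Bl/6 mice, 1 array each, and every mouse was R26NC/NC, that is, carried on both copies of the Rosa26 locus the R26-βcat allele, which yields an activated form of β-catenin once Cre has acted. Controls were 2 CD4Cre- mice aged 6 weeks, and the pre-transformed group was 3 CD4Cre+ mice of the same age with a thymus of normal size and polyclonal thymocytes. From both, thymocytes positive for CD4 and CD8 (double-positive, DP) were sorted to over 98% purity and labelled from 0.1 µg of RNA with an amplification kit. The tumour group was 4 CD4Cre+ mice with thymic tumours, aged 28, 26, 23 and 21 weeks (tumours 1 to 4), whose unsorted tissue was at least 95% DP and was labelled from 2.5 µg by the standard protocol. Age, sorting and labelling therefore changed together with the tumour group and cannot be told apart from it. Cre is driven by Cd4 sequences, and only CD4Cre+ mice carried it, so active β-catenin and Cre cannot be told apart either. In bulk samples, fewer cells of a type and less RNA per cell cannot be told apart.

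A T cell receptor binds peptide on an MHC molecule but has no signalling tail of its own. The CD3 dimers, γε and δε, and the ζ homodimer made from Cd247 carry the tyrosine motifs that Lck phosphorylates and Zap70 then binds, and without these chains the receptor does not reach the cell surface. CD4 and the CD8αβ heterodimer bring Lck to the receptor as they bind MHC class II or class I, and DP thymocytes, the stage at which receptors are first selected, carry both.

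Cd3e, Cd3d and Cd3g lie side by side on chromosome 9, Cd8a and Cd8b1 side by side on chromosome 6 and Cd4 elsewhere on chromosome 6, while Cd247 lies on chromosome 1. The bases just upstream of the annotated start of the CD3 genes are shown because these genes neighbour each other and their signals differed in the size of their fall. They were read from the RefSeq promoter table (build GRCm38.p6), which matched 5 of the 7 members. Capitals mark the core that TCF/LEF factors, the DNA-binding partners of β-catenin, are known to bind (CTTTGA or CTTTGT on either strand).

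Cd3d, chr9:44981536-44981768, plus strand: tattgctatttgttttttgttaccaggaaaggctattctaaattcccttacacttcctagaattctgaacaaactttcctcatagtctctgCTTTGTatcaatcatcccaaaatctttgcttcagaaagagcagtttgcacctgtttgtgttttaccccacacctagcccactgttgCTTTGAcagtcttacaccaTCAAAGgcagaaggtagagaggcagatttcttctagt
Cd3g, chr9:44980432-44980681, minus strand: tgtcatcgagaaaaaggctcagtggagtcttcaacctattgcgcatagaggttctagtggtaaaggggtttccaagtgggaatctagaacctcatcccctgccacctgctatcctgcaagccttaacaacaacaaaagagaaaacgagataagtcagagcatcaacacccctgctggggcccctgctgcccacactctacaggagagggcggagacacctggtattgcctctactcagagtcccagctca
Cd3e, chr9:45009664-45009861, minus strand: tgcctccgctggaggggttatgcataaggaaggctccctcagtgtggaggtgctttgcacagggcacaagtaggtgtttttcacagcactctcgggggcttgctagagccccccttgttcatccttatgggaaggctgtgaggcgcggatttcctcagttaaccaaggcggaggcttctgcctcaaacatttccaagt

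In the whole table entry, 250 bases before to 50 after the start of transcription, Cd3d had 3 such cores, at positions -159, -73 and -54. Cd247 had 1, at position 2, and Cd3g, Cd3e and Cd8a had 0. The start used for Cd247 (165788681) lies inside the annotated gene, which begins at 165779952, so its entry is not upstream of the gene. Of 32851 promoters of this length, 31.2% held at least 1 core and 1.14% held 3 or more. A match is a string of letters, and these data hold no measurement of binding.

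Before transformation no probe set of the coreceptor and CD3 genes was called changed. With limma's test and an adjusted p under 0.05, 0 of the 15 probe sets were called higher in pre-transformed than in control DP cells and 0 lower, where 0.587% and 0.246% of 26421 probe sets tested were called. By 1 probe set per gene, the brightest, 0 of 7 genes were called, against 0.730% of 11644 genes higher and 0.215% lower. With so few calls among all probe sets, the absence of calls says little about the members. Without adjustment, limma's p was under 0.05 for 4 of the 15. The share of all probe sets at that level was not counted, so no excess is read from these 4. Cd4 1419696_at (log2 change 0.46), Cd8a 1440164_x_at (0.88) and Cd247 1420716_at (0.48) were higher, and Cd247 1426396_at (-0.28) was lower.

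In tumours the signals of the CD3 chain genes were lower, and least so that of Cd3d. Against pre-transformed cells 11 of 15 probe sets were called lower, 1 higher and 3 neither, where 26.7% of all probe sets tested were called lower and 23.1% higher. By gene, 6 of 7 were lower (29.9% of all genes) and 0 higher (23.1%), and Cd4 was the exception. By gene the median log2 change was -0.93 for members and -0.12 for all genes. Over probe sets it was -1.14 for members, the value of the dim Cd247 1426079_at, and -0.12 for all. Against controls, which share the tumour arrays with the first comparison, 10 probe sets were lower and 3 higher (20.5% and 19.4% of all), and 5 genes were lower and 1 higher (23.9% and 19.6%). By gene the median change was -0.82 for members and -0.08 for all. Over probe sets it was -1.05 for members, again the value of Cd247 1426079_at, and -0.05 for all.

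**Figure D1:**
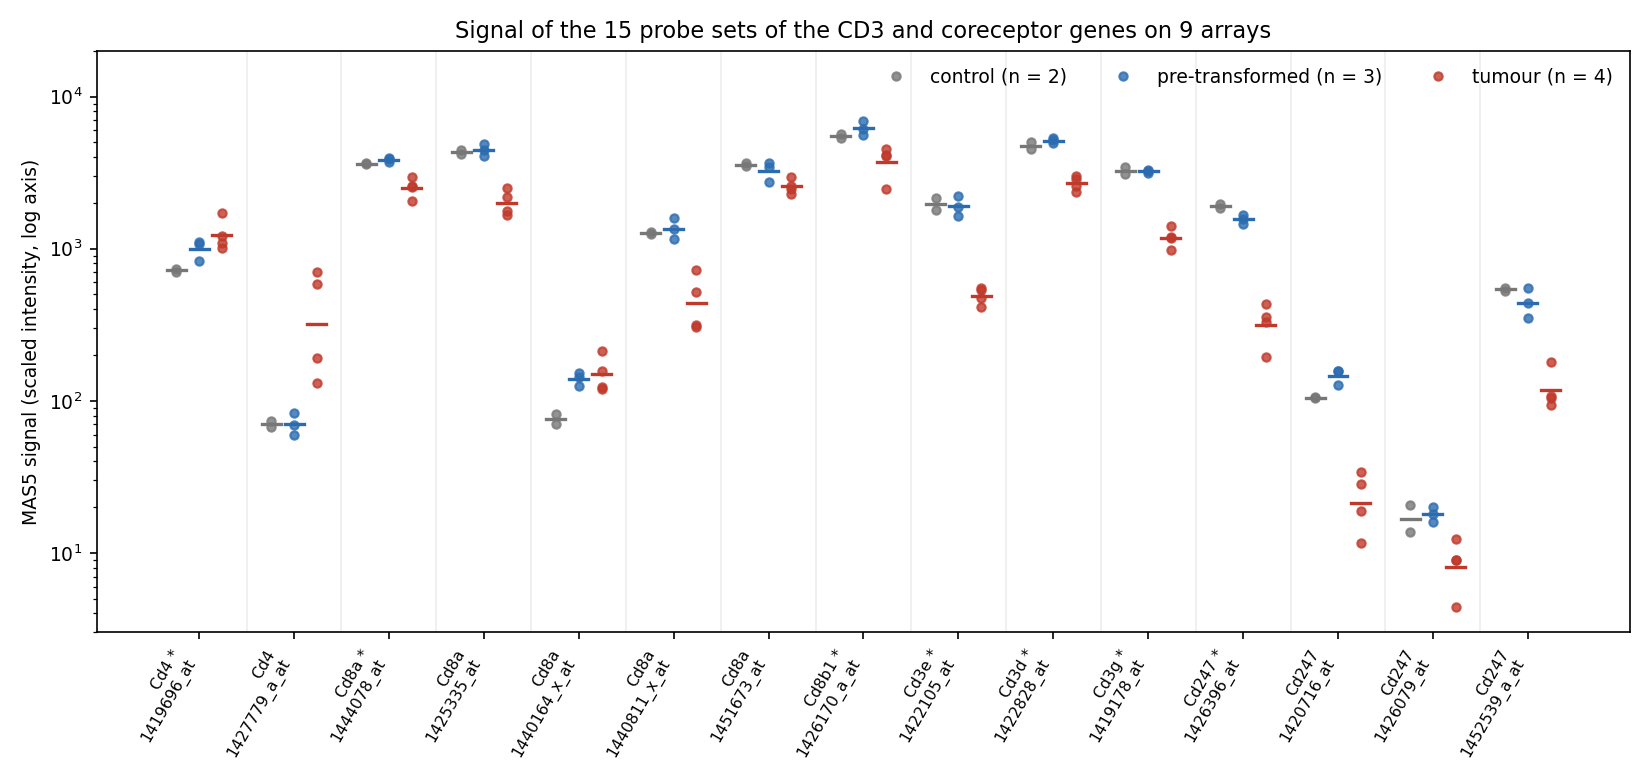
MAS5 signal (scaled intensity, log axis) of the 15 probe sets on each of 9 arrays: grey, control (n = 2); blue, pre-transformed (n = 3); red, tumour (n = 4). Horizontal bars are geometric means, and * marks the brightest probe set of a gene. For Cd3e the tumours lie between 415 and 548, below all sorted samples, whereas for Cd4 1427779_a_at they lie above.

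Cd4, the coreceptor for MHC class II, had on 1419696_at signals of 707 and 738 in controls, 832, 1069 and 1109.8 in pre-transformed cells, and 1095, 1216, 1725 and 1008 in tumours 1 to 4. Every pre-transformed sample lay above both controls, and tumours overlapped the pre-transformed range. The log2 change from control was 0.46 ± 0.14 (SE) in pre-transformed cells (adjusted p = 0.167) and 0.77 ± 0.22 in tumours (adjusted p = 0.0195). That second call was lost without control 1 (0.74) or control 2 (0.80) and under median centring. Between tumours and pre-transformed cells the change was 0.31 ± 0.19 (adjusted p = 0.206).

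The other Cd4 probe set, 1427779_a_at, read 73.7 and 67.4 in controls, 69.2, 82.9 and 59.5 in pre-transformed cells, and 588, 705, 191 and 131 in tumours 1 to 4. All tumours lay above all sorted samples, but they spread over more than the other probe set did, with an SD of 1.19 on the log2 scale against 0.34. It was 4.57-fold higher in tumours than in pre-transformed cells (log2 2.19 ± 0.54, adjusted p = 0.0076). Against controls the change was 2.18 ± 0.61 (adjusted p = 0.0184), a call lost without either control array and under median centring. It was also lost with a common floor of 40, a setting not planned beforehand. The suffix _a_at marks a probe set that can detect several transcripts of a gene, and the transcripts behind the difference between the Cd4 probe sets were not examined.

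Cd8a encodes the α chain of CD8, and its 5 probe sets did not move alike. On 1425335_at, signals were 4191 and 4439.6 in controls, 4089, 4891.5 and 4467 in pre-transformed cells, and 1774, 1665, 2519 and 2179 in tumours. No tumour reached a sorted sample, and tumours were 2.23-fold lower than pre-transformed cells (log2 -1.16 ± 0.15, adjusted p = 0.000237). On the brightest probe set over the 9 arrays, 1444078_at, they were 3596 and 3635, then 3931, 3892 and 3709.9, then 2555, 2056, 2946 and 2585. Here too the tumours were lowest, but by less, at 1.53-fold (log2 -0.61 ± 0.12, adjusted p = 0.00266).

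A further Cd8a probe set, 1440811_x_at, gave 1280.3 and 1251 in controls, 1337, 1583 and 1160 in pre-transformed cells, and 313.5, 306.5, 726 and 521 in tumours 1 to 4. It fell most of the 5, by 3.09-fold (log2 -1.63 ± 0.29, adjusted p = 0.00136). On 1451673_at the signals were 3485.5 and 3655, then 2729, 3461 and 3657, then 2949, 2298, 2599.9 and 2450.1. Tumours overlapped pre-transformed cells there, and the call (log2 -0.35 ± 0.13, adjusted p = 0.0495) was lost in 15 of 23 alternatives, with adjusted p from 0.00036 to 0.776 over them. Leaving out pre-transformed 2 or 3, tumour 2, 3 or 4, or either control was enough to lose it, with log2 changes of -0.26 to -0.35. The faintest Cd8a probe set, 1440164_x_at, read 81.8 and 70.8, then 144, 152 and 125, then 120.2, 122, 213.5 and 157. On it both Cre-positive groups lay above both controls, with a log2 change of 0.88 ± 0.16 in pre-transformed cells (adjusted p = 0.0577) and 0.97 in tumours (adjusted p = 0.0175). The tumour call was lost without control 1 or 2 and under median centring. It was also lost with only the arrays of the 2 groups in the fit and with replicate number as a block.

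Cd8b1 encodes the β chain of CD8, which pairs with the α chain. Its signals were 5369 and 5686 in controls, 5622, 6868 and 6087 in pre-transformed cells, and 4088.5, 2472, 4104 and 4546 in tumours. All tumours were lower than all sorted samples, tumour 2 the lowest. They were 1.67-fold below pre-transformed cells (log2 -0.74 ± 0.19, adjusted p = 0.01), while the change from control, -0.58, was not called (adjusted p = 0.0577). It was called without tumour 2 (-0.38) or tumour 4 (-0.67).

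Cd3e encodes the ε chain, which is in both CD3 dimers. It read 1802 and 2160.3 in controls, 1876, 1651 and 2229 in pre-transformed cells, and 532, 415, 548 and 474 in tumours. The sorted groups overlapped each other, and the tumours lay far below both. The fall from pre-transformed cells was 3.89-fold (log2 -1.96 ± 0.15, adjusted p = 2.28e-05), and the change between the sorted groups was -0.05, with a 95% interval of -0.39 to 0.29.

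The δ chain gene Cd3d read 4509 and 5001 in controls, 4916, 5164 and 5302 in pre-transformed cells, and 3015, 2584, 2354 and 2882 in tumours. Tumours were 1.90-fold lower than pre-transformed cells (log2 -0.93 ± 0.11, adjusted p = 0.000137). The γ chain gene Cd3g read 3079 and 3455, then 3153, 3226 and 3271.5, then 1400.4, 1172, 1186 and 979. Its fall was 2.74-fold (log2 -1.45 ± 0.13, adjusted p = 3.65e-05). For both genes the groups of sorted cells overlapped and the tumours stood apart.

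Cd247 encodes the ζ chain, which carries the most tyrosine motifs of the complex. Its brightest probe set, 1426396_at, read 1953 and 1844 in controls, 1577, 1458.5 and 1666 in pre-transformed cells, and 195, 330.5, 356 and 433 in tumours 1 to 4. Its fall from pre-transformed cells was 4.95-fold (log2 -2.31 ± 0.24, adjusted p = 7.17e-05), and tumour 1, from the oldest mouse, was lowest. Pre-transformed samples lay below both controls without overlap, at a log2 change of -0.28 (95% interval -0.52 to -0.03, adjusted p = 0.243).

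For Cd247, 1452539_a_at read 555 and 525, then 348, 437 and 555, then 108, 181, 105 and 93.2, a fall of 3.73-fold in tumours (adjusted p = 0.000289). On 1420716_at signals were 105 and 104, then 157, 127 and 157, then 11.6, 19, 33.9 and 28.3. The tumour values lay below the 65th percentile of their arrays, so the fall from pre-transformed cells is given as a bound. This bound is at least 4.07-fold, the dim group being set to that percentile (adjusted p = 0.000222). There pre-transformed cells were above controls, opposite to 1426396_at. The remaining probe set, 1426079_at, was at 4.4 to 20.7 on all arrays, under that percentile everywhere, and gives no fold.

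**Figure D2:**
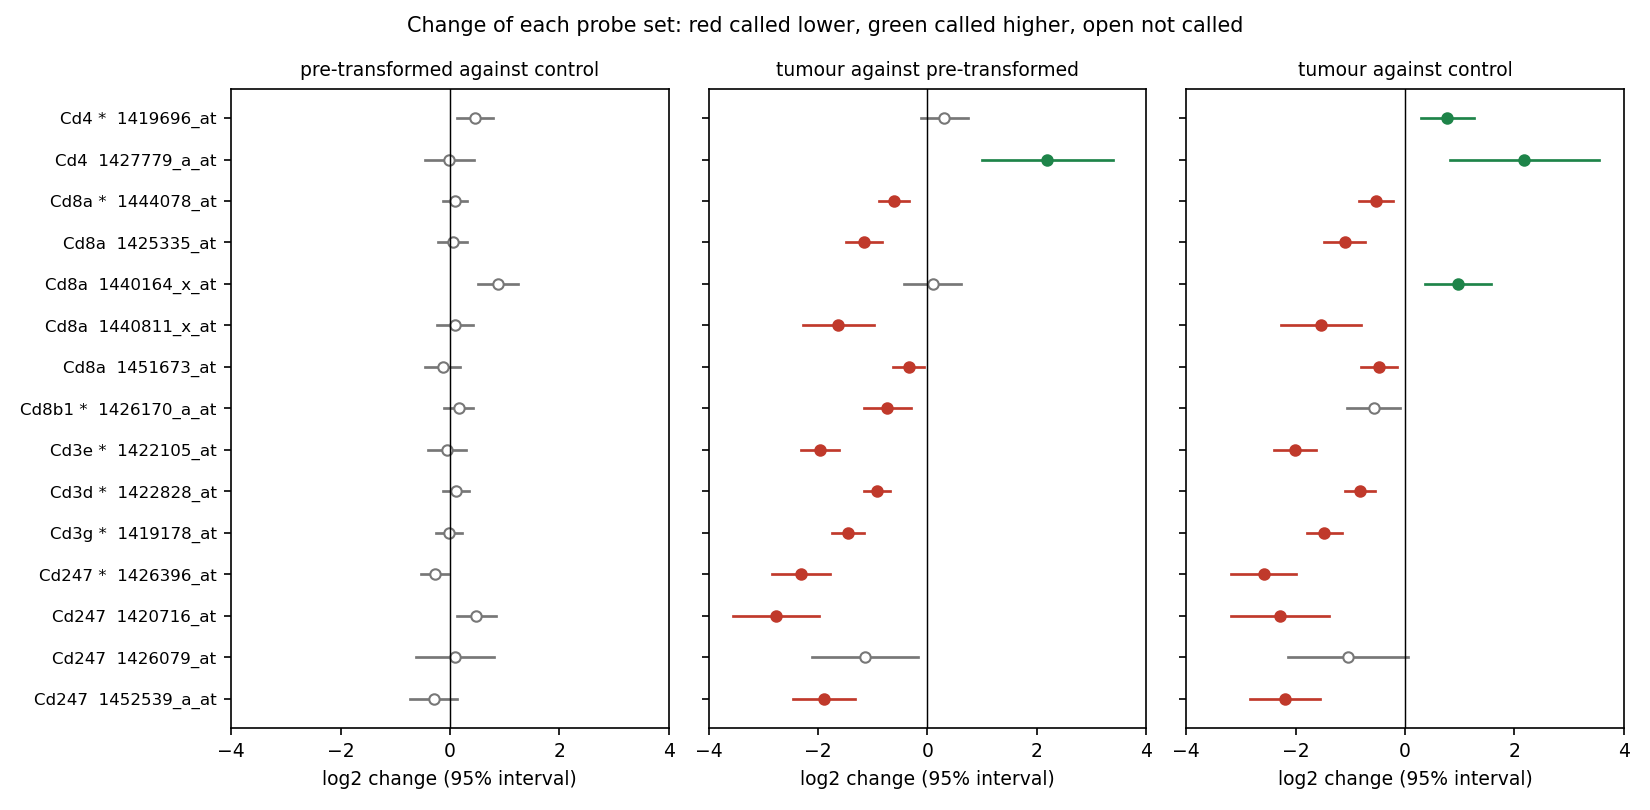
Log2 change (limma, with its 95% interval) of each probe set in 3 comparisons; filled red, called lower; filled green, called higher; open, not called; * marks the brightest probe set of a gene. In pre-transformed cells all 15 points are open, and in tumours against pre-transformed cells 11 are red.

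Whether the signals of the chains fell by unequal amounts was tested on log2 ratios between genes within an array. There were 5 ratios in all, with exact two-sided permutation tests adjusted over the 5. A ratio of signals from different probe sets has no meaning as a ratio of transcripts, but its change between groups does not depend on the scaling of an array. Cd3e, Cd3d and Cd3g had 1 probe set each, so unequal falls of transcripts cannot be told apart from unequal response of probe sets. The probe sets of Cd8a alone changed by -1.63 to 0.09 on the log2 scale in tumours against pre-transformed cells. Relative to Cd3d, Cd3e was 1.03 lower in tumours than in pre-transformed cells, Cd3g 0.53 lower and Cd247 1.38 lower, each on the log2 scale. In all 3 ratios no tumour overlapped a sorted sample. The permutation p was 0.0286 for each, the smallest that 35 splits allow, and the adjusted p 0.0357. Under quantile normalization the changes were -0.72, -0.42 and -1.03, and the adjusted permutation p was 0.0714 for each. Against the 5 sorted samples together, changes were -1.10, -0.58 and -1.54 (exact permutation p = 0.00794, the smallest of 126 splits; adjusted p = 0.00992).

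For Cd247 over Cd3d the log2 ratio was -1.21 and -1.44 in controls, -1.64, -1.82 and -1.67 in pre-transformed cells, and -3.95, -2.97, -2.72 and -2.73 in tumours 1 to 4. For Cd4 over Cd8a it was -2.35 and -2.30, then -2.24, -1.86 and -1.74, then -1.22, -0.76, -0.77 and -1.36. Between controls and pre-transformed cells, with 10 splits, p cannot go below 0.1, and it was 0.1 for Cd247 over Cd3d (change -0.39) and 0.2 for Cd4 over Cd8a (change 0.38). With the mean of each gene's probe sets these changes were -0.11 and 0.03. Cd4 over Cd8a was 0.92 higher in tumours than in pre-transformed cells (exact permutation p = 0.0286, adjusted p = 0.0357). Its size depended on the probe sets, at 1.46 with Cd8a 1425335_at and 1.98 with the mean of each gene's probe sets, and the last, like quantile normalization, lost the call (adjusted permutation p = 0.0714).

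Cd8b1 over Cd8a, the balance of the 2 CD8 chains, differed by -0.12 between tumours (0.56 ± 0.24, SD, n = 4) and pre-transformed cells (0.68 ± 0.15, n = 3), with an exact permutation p of 0.457. This depended on the Cd8a probe set. With 1425335_at in place of 1444078_at, tumours differed from the 5 sorted samples by 0.463, opposite in sign to -0.10 with the other (exact permutation, adjusted p = 0.00794 against 0.444).

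**Figure D3:**
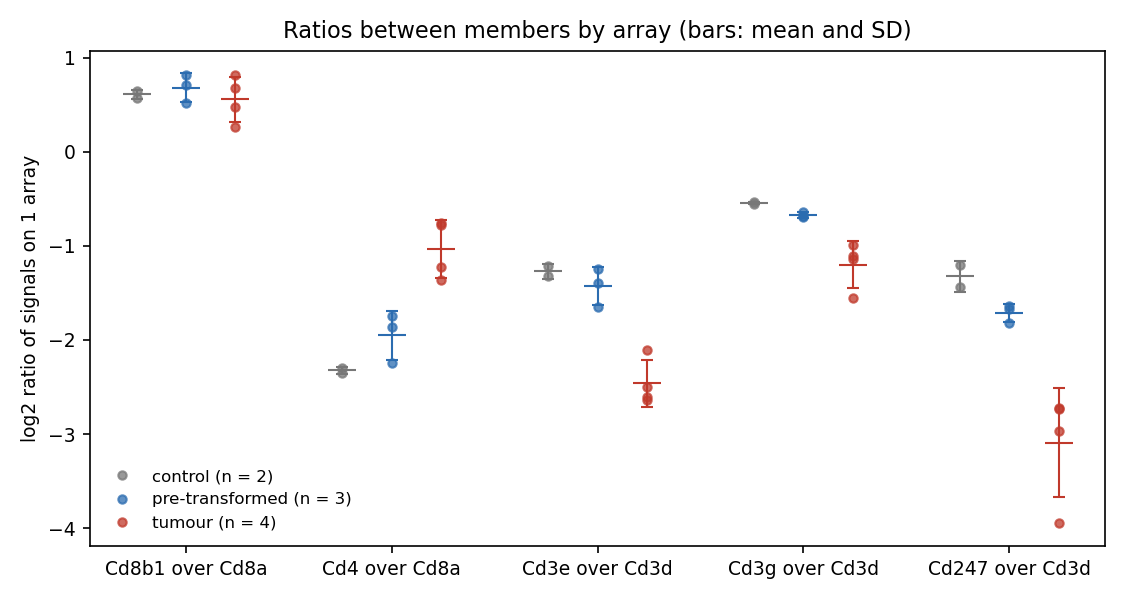
Log2 ratio of the signals of member pairs on each array: grey, control (n = 2); blue, pre-transformed (n = 3); red, tumour (n = 4); wide bars with whiskers, mean and SD. Tumours lie below all sorted samples for the 3 CD3 ratios, above them for Cd4 over Cd8a. For Cd8b1 over Cd8a tumours 2 and 3 lie below them and tumours 1 and 4 in their range.

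Kinases and adaptors that act just after the receptor were next counted. Of 25 genes of proximal receptor signalling tested, 16 were called lower and 1 higher (Malt1, a scaffold and protease of NF-κB signalling) in tumours against pre-transformed cells, where 29.9% of all genes were lower and 23.1% higher. The median log2 change was -0.85 against -0.12 for all genes. Trat1, an adaptor that binds the receptor complex, had the largest fitted change (log2 -3.28 ± 0.97, adjusted p = 0.0188), from 945.5 to 1023 in pre-transformed cells to 192, 9.9, 188 and 307 in tumours 1 to 4. The value of tumour 2 is below the 65th percentile of that array (28.6), and without tumour 2 the difference of group means was -2.16. Prkcq, protein kinase C theta, fell by 2.54 on the log2 scale (-2.25 without tumour 2) and Dgka, a diacylglycerol kinase, by 2.35 (-2.10). The smallest p was that of Pag1, which holds Csk at the membrane (log2 -1.72 ± 0.11, adjusted p = 1.12e-05). Lat, the membrane scaffold for Zap70 targets, fell by 1.20, while Zap70 itself, which binds the phosphorylated ζ chain, was at -0.07 ± 0.22 (adjusted p = 0.81). In pre-transformed cells 1 of the 25 was called, Dgka, higher by 0.62 (adjusted p = 0.0493), where 0.730% of all genes were called higher. That call lies at the threshold, and Dgka was not followed through the alternatives. Lck is not analysed here.

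**Figure D4:**
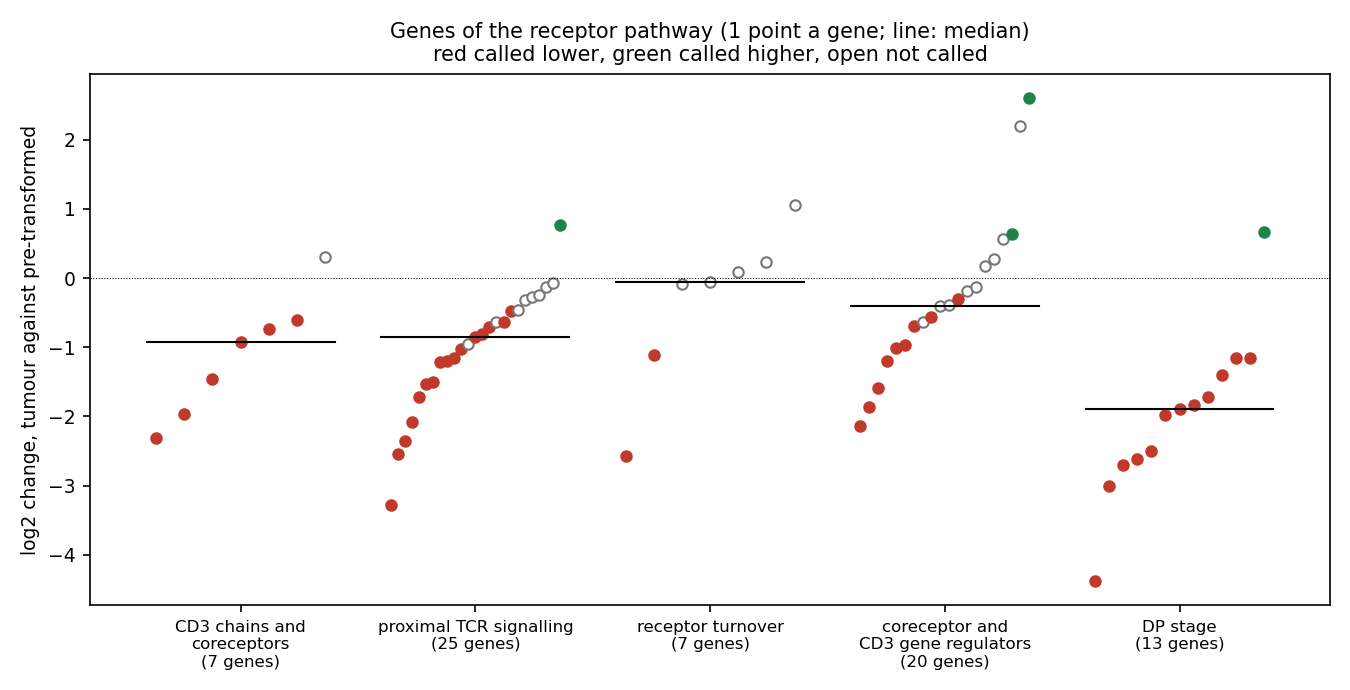
Log2 change in tumours against pre-transformed cells for genes of 5 lists, 1 point a gene; red, called lower; green, called higher; open, not called; black lines, medians. The medians are -0.93 for the CD3 and coreceptor genes, -0.85 for proximal signalling and -1.89 for the DP stage.

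Of 7 genes that control removal of the receptor from the surface, 2 were lower, Sla2 (log2 -2.58 ± 0.38) and Cbl (-1.11 ± 0.26), and 0 higher, a share near the 29.9% of all genes called lower, and the median log2 change was -0.06 against -0.12 for all genes. Both encode proteins that promote loss of the receptor. Ptcra, which encodes the pre-receptor α chain, had signals of 214 to 251 in pre-transformed cells and 2.7 to 6.8 in tumours (adjusted p = 8.37e-06). Of the other receptor chain genes only Tcra was tested, and it was dim everywhere (1.6 to 27.9).

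Of 20 factors known to act on the Cd4, Cd8 or CD3 genes or at this stage, 9 were called lower in tumours and 2 higher, against 29.9% and 23.1% of all genes, with a median log2 change of -0.40. Runx1, which binds the Cd4 silencer, had a log2 change of -2.14 ± 0.35 (adjusted p = 0.000879). Patz1, which interacts with CD8 regulatory sequences, was at -1.86 ± 0.19 (adjusted p = 6.49e-05). Runx3, which silences Cd4 in cells of the CD8 lineage, was dim in sorted cells (24.5 to 32.2) and read 223, 62.8, 276 and 170 in tumours 1 to 4 (adjusted p = 0.0011). Zbtb7b, the factor of the CD4 lineage, was at 0.8 to 4.1 in sorted cells and 2.5, 3.3, 47.3 and 23.9 in tumours and was not called (adjusted p = 0.134). Lef1, a partner of β-catenin, was at -0.13 ± 0.16 (adjusted p = 0.491). In pre-transformed cells 0 of the 20 were called, where 0.730% of all genes were called higher and 0.215% lower. Before adjustment limma's p was under 0.05 for 4 of them, and the share of all genes at that level was not counted. Tcf7 is not analysed here.

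The genes next to the members did not all follow them. Gpr162, the neighbour of Cd4, fell from 611 to 652 in pre-transformed cells to 34.7 to 111 in tumours (log2 -3.37 ± 0.35, adjusted p = 7.45e-05), while Cd4 did not fall. Lag3, on the other side of Cd4, was dim in all groups, which gives no fold, and was called lower (21.6 to 38.2 in pre-transformed cells and 1.9 to 7.9 in tumours, adjusted p = 0.00142). Next to the CD3 cluster Ube4a was lower (log2 -0.50 ± 0.17, adjusted p = 0.0337), by less than any CD3 gene. Creg1, beside Cd247, was higher in tumours (log2 1.02 ± 0.25, adjusted p = 0.0072). Rmnd5a, beside Cd8a, was not called (log2 -0.54 ± 0.30, adjusted p = 0.165). Of the nearest measured genes farther out, Krcc1 (-0.52) and Mpzl3 (-1.07) were lower and Tada1 (-0.12) was not called.

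Across the 9 arrays the 6 genes other than Cd4 correlated with each other with Pearson's r up to 0.983 (Cd3e with Cd3g), and Cd4 correlated negatively with all 6, down to -0.68 with Cd3d. The arrays form a tumour and a sorted cluster and share their scaling, so these values mainly describe that split. Of 8071 other genes with a bright probe set, the ones most like each member were Mlec for Cd4 (r = 0.985), Itgb2 for Cd8a (0.993), E130309D02Rik for Cd8b1 (0.994), Cbr1 for Cd3e (0.996), Cep63 for Cd3d (0.986), Anxa2 for Cd3g (0.996) and Klc3 for Cd247 (0.998), followed by Tulp3, Trak1, Socs3, Ece1, Prps2, Fam234b and Prodh in the same order, then Sgpl1, Fam214a, Parp14, Mm2pr, Mcm9, S100a13 and Oxr1.

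The label DP was checked by markers. Of 13 DP-stage genes tested, all well expressed in sorted cells, 12 were lower in tumours than in pre-transformed cells and 1 (Slamf6) higher. Of all genes, 29.9% were lower and 23.1% higher. Among the lower genes were Rag2 (log2 -3.01 ± 0.43) and Aqp11 (1142 in pre-transformed cells, 54.7 in tumours). Themis is in both this list and that of proximal signalling, so the counts of these lists are not separate. Of 12 genes of the earlier double-negative stage, Il2ra, Kit, Hes1, Hhex, Mycn and Erg were under the 65th percentile on every array. Of the 11 tested, 5 were lower in tumours than in pre-transformed cells and 3 higher, where 29.9% and 23.1% of all genes were. The share higher was near that of all genes. The median log2 change of the 11 was 0.82 against pre-transformed cells but -1.25 against controls. Both medians are the value of the dim gene Kit, so they say little about the list. Kit read 18.6 to 19.4 in controls, 1.3 to 9.2 in pre-transformed cells and 5.7 to 10.2 in tumours. Notch1 fell from 462 to 21.0, while Il7r, which encodes a cytokine receptor chain, read 3.9 to 11 in pre-transformed cells and 612, 31.5, 140.4 and 41 in tumours 1 to 4. The other genes higher were Cd44 and Hhex, the latter at 7.4 to 19.9 in tumours. Cd44 was also higher in pre-transformed cells (551 against 61.3 in controls, adjusted p = 0.0031). Of 8 mature-stage genes 3 were lower, Gimap6 with the smallest p (adjusted p = 0.000119), and 1 was higher, shares near those of all genes (29.9% and 23.1%), and the median log2 change was -0.06.

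Markers of some other cell types were higher in tumours, but the myeloid and B cell sums were not on tumour 2. The summed signal of 13 myeloid genes was 158 to 192 in controls, 170 to 296 in pre-transformed cells and 178 to 3918 in tumours, and that of 7 B cell genes was 272 to 294, 243 to 263 and 26.3 to 819. Lyz2, a macrophage gene, read 1659, 3.1, 1376 and 1741 in tumours 1 to 4, and Ms4a1, a B cell gene, 198, 5, 139 and 269.7. Both lists were lowest on tumour 2. There the signals of Cd3e, Cd8b1 and Cd8a 1444078_at, 1425335_at, 1440811_x_at and 1451673_at lay below those of the other tumours. Those of Cd4 1427779_a_at and Cd247 1452539_a_at lay above them. Cd3d, Cd3g, Cd247 1426396_at and 1420716_at, Cd4 1419696_at and Cd8a 1440164_x_at lay within the range of the other tumours. Dendritic genes summed to 25.5 to 49.3 in sorted cells and 52.5 to 158 in tumours, and stromal genes to 157 to 200.2 and 170 to 427. All 9 natural killer genes and all 9 thymic epithelial genes were under the 65th percentile on every tumour array. Erythroid genes summed to 4.6 to 19.3 and 40.1 to 90.1. Among genes called in these lists, the one with the smallest p was higher in tumours in every list but epithelium. Chil3 (myeloid, 2.4 to 238 in tumours) and Alas2 (erythroid, 2.4 to 50.3) were above the 65th percentile on some tumour arrays. Ebf1 (B cells, 2.7 to 20.6) and Flt3 (dendritic, 12.3 to 20) were under it on every array. So were Gzmb (natural killer, 7.9 to 30.6) and Dcn (stroma, 6.5 to 33.5). The calls of Ebf1, Flt3, Gzmb and Dcn therefore say little about those cell types. For epithelium the gene was Cldn4 (2.2 to 27.6), which was lower. In pre-transformed cells against controls 1 myeloid gene was called higher, Itgam, and 0 of the B cell list, where 0.730% of all genes were called higher. Itgam read 33.3, 53.4 and 33 against 4.4 and 10.8 in controls (limma, adjusted p = 0.0497, at the threshold). It was dim in both groups, which gives no fold. The part of other cells in the results was not tested.

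Array quality also differed. The log2 ratio of 3′ to 5′ β-actin probe sets ranged from 0.198 to 0.348 in sorted cells but from 0.544 to 1.14 in tumours, and the median signal of an array from 9.9 to 11.8 and from 10.7 to 15.2. The same ratio for Gapdh overlapped, at -0.336 to -0.011 and -0.526 to -0.102. The part of these in the members' changes was not tested. Centring each array on the median of all its probe sets moved the median change of all probe sets from -0.12 to -0.38 against pre-transformed cells and from -0.05 to -0.44 against controls. Calls against pre-transformed cells then split into 4310 higher and 8816 lower in place of 6115 and 7053, and against controls into 2792 and 7998 in place of 5137 and 5418. Centring on the median of the probe sets that passed the filter moved the medians the other way, to 0.16 for both, with 7568 higher and 5285 lower, and 6036 and 4275. The CD3 genes were called lower in tumours under both. Cd4 1419696_at, in contrast, was called higher against pre-transformed cells under the second (0.60) and not called against controls under the first (0.38).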

How the data were processed

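For 9 arrays the authors deposited a single table of MAS5 signal, an intensity on a linear scale. MAS5 is named in the submitters' processing notes with no version there. On every array the mean of all probe sets but the lowest and highest 2% was 100, as checked on the values. Arrays have no read depth, and their number limits the precision. After removal of 64 control probe sets 45037 were used, of which 34945 named 1 gene, 932 several and 9160 none in the platform annotation. Values were taken to log2 (0 set to 0.1; 0 such values among members) without further normalization.

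A probe set was tested if on at least 2 arrays it reached that array's median (26421 of them). For each of 11644 genes the brightest tested probe set stood for the gene. Tests used limma 3.58.1 in R 4.3.3 (lmFit, eBayes with trend) with Benjamini-Hochberg adjustment over all tested probe sets. The fit of pre-transformed cells against controls used those 5 arrays, and the tumour comparisons used all 9. The method was tested on simulated data. A group was called dim where its geometric mean lay below the geometric mean of the 65th percentiles of its arrays. Each array is a separate mouse, and replicate numbers name different mice, so that no pairing was used.

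The members, gene lists and tests were chosen with earlier results of these data known. Genes named were all members, and from each list the called gene with the smallest p. For regulators and proximal signalling, the 3 largest changes were added. A few further genes were fixed by name, together with the neighbours of each member and its 3 most similar genes. Malt1, Lat, Zap70, Cbl, Rag2, Slamf6, Il7r, Hhex, Lyz2 and Ms4a1 were named after their values were seen. Coordinates and sequences are RefSeq's. Alternatives covered the filter, scaling, offset, variance model, probe set choice, array weights, arrays in the fit, replicate number as a block and each array left out. Figures used matplotlib 3.10.9.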

Additional observations from a re-analysis of the deposited data

How the results depend on the processing

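Under the alternatives run, no log2 change of a called member probe set changed sign. Counts of called probe sets moved as follows. In pre-transformed cells against controls 1 was called higher with the stricter filter and 1 with array weights (Cd8a 1440164_x_at in both). In tumours against pre-transformed cells, 1 probe set per gene gave 0 higher and 6 lower of 7, leaving out suffixed probe sets gave 0 and 7 of 10, and centring on the median of the kept probe sets, chosen after seeing the data, gave 2 higher. In tumours against controls, median centring gave 0 higher, 1 probe set per gene gave 1 higher and 5 lower, and leaving out suffixed probe sets gave 1 higher. With 1 array left out at a time, tumours against pre-transformed cells gave 1 higher and 10 to 12 lower, and tumours against controls 0 to 3 higher (0 without either control) and 8 to 11 lower. The log ratio of Cd8b1 over Cd8a in tumours against both sorted groups was 0.463 with the other Cd8a probe set, also chosen after seeing the data; the cause was not tested. With quantile normalization the 4 other ratios against pre-transformed cells had an adjusted permutation p of 0.0714. Cd4 over Cd8a also lost its call with the mean of each gene's probe sets. With any tumour or pre-transformed array left out the design could not reach the threshold after adjustment.

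Same-numbered arrays are different mice, and their deviations correlated at 0.0104 to 0.108. With replicate number as a block, the counts higher and lower were 0 and 0 in pre-transformed cells against controls, 1 and 10 in tumours against pre-transformed cells, and 2 and 9 in tumours against controls. Dim probe sets, such as Cd247 1426079_at, give little information on the members.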
